A study of Mus musculus with 12 samples.

Results

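The splicing factor and hnRNP genes of terminal erythroid differentiation were taken as every gene whose symbol begins with Srsf, Hnrnp, Sf3a, Sf3b, Snrp, Prpf or U2af, without pseudogene symbols, and whose FPKM (fragments per length of transcript and per mapped fragments of the library) reached 1 in at least 3 of the 12 libraries. Of 72 such symbols, 3 were pseudogenes and 2 were too low, Snrpert with at most 0.562 FPKM and Snrpn with at most 0.0948 FPKM in any library. The remaining 67 genes were 20 Hnrnp, 13 Prpf, 11 Snrp, 10 Srsf, 9 Sf3 and 4 U2af genes, among 12994 genes tested and 29838 genes in the table. U2af1l4 was listed under 2 identifiers, so the 67 genes carry 66 symbols. The lowest gene kept, Prpf40b, ranged from 0.389 to 2.28 FPKM.

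Erythroblasts were sorted from the bone marrow of wild-type male C57BL/6 mice aged 8 weeks after depletion of CD45+ cells, and RNA was sequenced from 4 stages with 3 libraries each. Proerythroblasts (Pro) were the CD44-high, Ter119-low cells, and basophilic (Baso), polychromatic (Poly) and orthochromatic (Ortho) erythroblasts were gated among Ter119+ cells by CD44 and cell size. Replicates 2 and 3 of Ortho are called only erythroblasts in their cell type label and were placed by their titles. The labels and methods do not say whether the 3 libraries of a stage came from separate mice, so p-values measure the spread between these libraries, which may be technical.

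Splicing removes introns from the primary transcript by a set of small nuclear ribonucleoproteins (snRNPs). Each snRNP of the major spliceosome carries a small nuclear RNA in a ring of Sm proteins, which the Snrp genes encode together with proteins that belong to the U1 or U2 snRNP alone. U2AF binds the acceptor splice site, SF3A and SF3B hold the U2 snRNP on the branch point, and the PRPF proteins belong to the tri-snRNP and to the complexes that activate the spliceosome. SR proteins (Srsf) mostly promote and hnRNPs often repress the use of an exon, and both also act in mRNA export, stability and translation. Late erythroblasts condense their nucleus and lose it, and switches of exons such as those of the protein 4.1 transcript are classical events of this lineage.

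Hemoglobin transcripts, as a share of all FPKM, were 8.45% ± 1.95 at Pro, 35.1% ± 1.79 at Baso, 36.6% ± 1.56 at Poly and 49.6% ± 2.74 at Ortho (SD, n = 3 libraries each). The libraries of Baso and Poly overlapped in this share, and no hemoglobin gene or late erythroid marker was called between them. Of 8 late erythroid markers, 7 were called higher in Ortho than in Pro, whereas of 7 early markers none was called lower and Gata2 was called higher. Markers of other cells of the marrow were present, although the sort also gated out cells stained for CD45, CD11b or GR1. The summed FPKM of 10 neutrophil markers was 7350 to 9160 in Pro and 14440 to 17855 in Ortho, and that of 8 B cell markers was 142 to 227 in Pro and 442 to 455 in Ortho. It was 29.3 to 35.2 in Pro and 62.3 to 73.9 in Ortho for 8 macrophage markers, and 21.6 to 30.4 and 35.7 to 41.6 for 8 T and NK cell markers, of which Cd3e and Cd3g were under 0.1 FPKM in both stages. The sum for 8 megakaryocyte and platelet markers went the other way, from 72.2 to 131 in Pro to 39.6 to 48.4 in Ortho. Single genes could differ from these sums. Of 7 megakaryocyte and platelet markers tested, 4 were called lower in Ortho, but Itga2b had a log2 fold change of 0.39. Of 4 macrophage markers tested, 2 were called higher, but Vcam1 had -0.31. The part of these cells in the results below was not tested, and in bulk samples fewer cells of a type and less RNA per cell cannot be told apart.

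Most splicing factor and hnRNP transcripts became less abundant from Pro to Ortho, and none of the 67 was called more abundant in any comparison of stages. A gene was called when limma on log2(FPKM + 1), across all genes tested, gave a Benjamini-Hochberg adjusted p under 0.05 and its log2 fold change was 1 or more in size. By this rule 6 of 67 were called lower in Baso than in Pro, 18 in Poly and 51 in Ortho. Over all genes tested, the shares called lower were 8.54%, 12.8% and 23.8%, and the shares called higher were 1.82%, 3.59% and 6.33%. The count in Baso was thus near the share of all genes, and those in Poly and Ortho were above it. For Poly this held only on the deposited scale and with all libraries at the same sum: 2 members were called lower without hemoglobin, beside 6.45% of all genes, and 4 with median centring, beside 7.12%. For Ortho the count without hemoglobin was 8, near the 9.89% of all genes, and on the other scales it was above the share. For Baso the count without hemoglobin was 1, Prpf19, beside 3.71% of all genes. The other Baso calls given below were thus lost on that scale. On the deposited scale, no member was higher at an unadjusted p under 0.05 in any of the 3 comparisons with Pro. Over all genes these shares were 16.9%, 24.6% and 23.4%. Without hemoglobin, Srsf5 and Sf3b1 were higher in Ortho than in Pro by the adjusted p, with values given below. Leaving out 1 library at a time, the count in Baso was 12 without Pro replicate 2 and 3 without Baso replicate 1, and 40 of the 51 calls in Ortho were kept in each of the 12 fits. With the adjusted p alone and no limit on the fold, 53 were lower in Baso, 56 in Poly and 64 in Ortho, beside 42.1%, 42.7% and 53.2% of all genes.

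Against Pro, the 67 genes had a median log2 fold change of -0.62 at Baso, -0.74 at Poly and -1.19 at Ortho, beside -0.23, -0.20 and -0.42 over all genes tested. In Ortho, 62 of 67 members lay below the median of all genes. An Ortho mean under 50% of the Pro mean was found in 54 members, but the share of all genes was not computed for this count. All 3 Ortho libraries lay below all 3 Pro libraries in 64 members, beside 53.6% of all genes, and all 3 Baso libraries below all 3 Pro libraries in 55 members, beside 44.2% of all genes. The median member held 97.1 FPKM in Pro and 42.7 FPKM in Ortho.

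**Figure D1:**
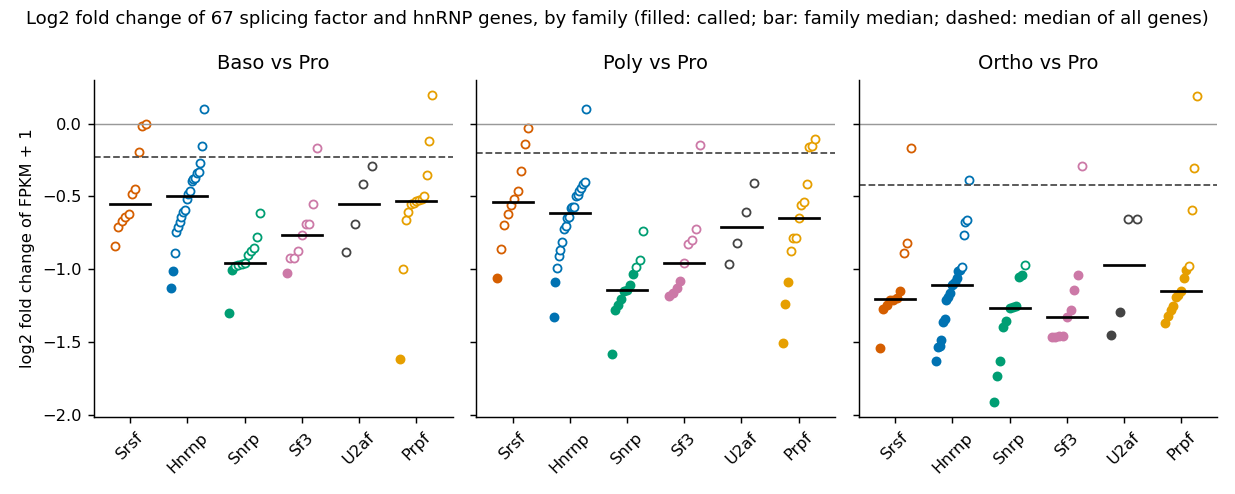
Log2 fold change of FPKM + 1 against Pro (y axis) for each of the 67 genes, grouped by family (x axis), in Baso, Poly and Ortho. Each circle is a gene, filled where it was called, the bar is the median of the family and the dashed line the median of all genes tested. Filled circles go from 6 in Baso to 51 in Ortho, and all lie below 0.

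An FPKM value depends on all other transcripts sequenced with it, and hemoglobin rose across the stages, so the same genes were also followed as a share of all transcripts other than hemoglobin. The summed FPKM of the 67 genes was 9524 ± 898 at Pro, 6061 ± 163 at Baso, 5583 ± 102 at Poly and 4084 ± 53.1 at Ortho (SD, n = 3). As a share of the FPKM without hemoglobin this was 2.01% ± 0.209, 1.59% ± 0.0236, 1.50% ± 0.0135 and 1.21% ± 0.0214. The 3 Pro libraries spread from 1.85% to 2.25% and still lay above every other library, and the 3 Ortho libraries, from 1.19% to 1.23%, lay below every other library. In a fit that left out hemoglobin and rescaled the other genes, Ortho vs Pro had a median of -0.03 over all genes and of -0.72 over the members. Of the members, 63 of 67 then had a log2 fold change below 0, beside 51.1% of all genes. Called lower were 8 members, beside 9.89% of all genes, so this count was near the share of all genes. These 8 were Snrpe, Snrpg, Snrpa1, Hnrnpab, Srsf10, Hnrnpa3, Hnrnpa1 and Sf3a1. Centring each library on its median gave 13 called lower, beside 9.95% of all genes, and a members' median of -0.80. The values below are on the scale of the deposited FPKM, and the members' median was below 0 and below that of all genes on each of these scales.

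**Figure D2:**
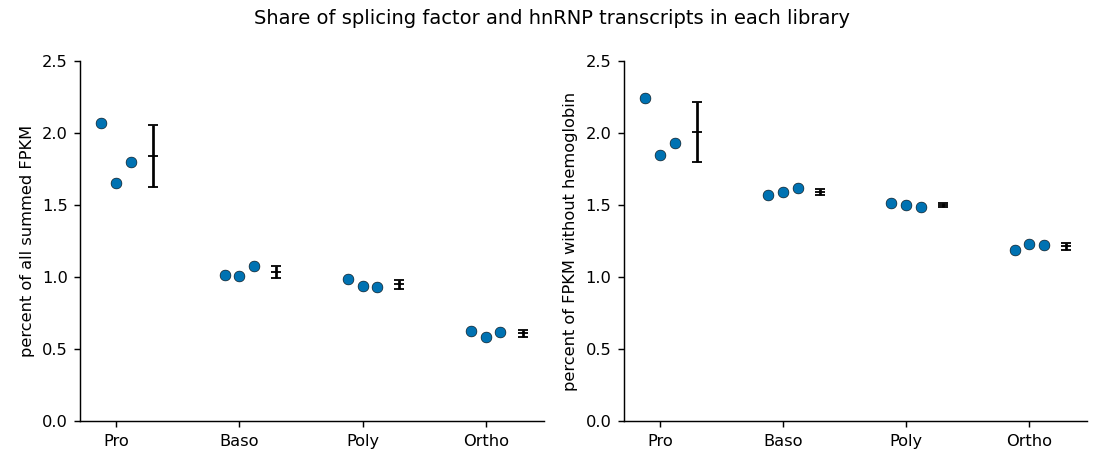
Summed FPKM of the 67 genes in percent (y axis) of all FPKM (left) and of all FPKM without hemoglobin (right), for the 3 libraries of each stage (x axis, circles) with mean and SD (bars). The share without hemoglobin goes from 2.01% in Pro to 1.21% in Ortho, and the 3 Ortho libraries are the lowest of the 12.

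The Sm and snRNP protein genes had the lowest family median in Baso. Of 11 Snrp genes, 2 were called lower in Baso, 8 in Poly and 10 in Ortho, and their median log2 fold change was -0.96 in Baso and -1.27 in Ortho. Snrpe, an Sm ring protein (mm10 chr1:133603871-133610291), measured 315, 173 and 219 FPKM at Pro, 112, 129.6 and 106 at Baso, 94.8, 91.03 and 94.7 at Poly and 54.7, 60.9 and 65.3 at Ortho. Its Pro libraries differed widely among themselves, but none overlapped with a later stage, and its log2 fold change in Ortho of -1.91 ± 0.17 (SE, adjusted p = 1.31e-06, limma) was the lowest of the 67. Snrpg, also of the Sm ring (mm10 chr6:86371304-86379328), went from 173, 145 and 165 FPKM in Pro to 62.4, 68.3 and 63.1 in Baso and 46.01, 46.6 and 50.1 in Ortho. Its libraries agreed more closely within each stage, with log2 fold changes of -1.298 ± 0.08 in Baso (adjusted p = 1.62e-06) and -1.73 ± 0.08 in Ortho (adjusted p = 1.23e-08, limma). The call in Baso was lost without hemoglobin.

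The other Sm genes Snrpb, Snrpd1, Snrpd2, Snrpd3 and Snrpf lay between -1.39 and -1.25 on the log2 scale in Ortho vs Pro, and all 5 were called lower. Snrpb, the most abundant Snrp transcript over the 12 libraries, went from 226, 203 and 211 FPKM in Pro to 83.7, 93.04 and 90.98 in Ortho. Among the proteins of single snRNPs, Snrpa1 of the U2 snRNP went from 57.8, 39.4 and 47.4 FPKM to 16.7, 12.8 and 14.8 FPKM, a log2 fold change of -1.63 ± 0.18 (adjusted p = 5.55e-06). Snrpb2, its partner in the same snRNP, had a log2 fold change of -0.97 ± 0.09 (adjusted p = 1.24e-06) and was the only Snrp gene not called in Ortho.

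Snrpa, the U1 snRNP protein that binds a loop of the U1 RNA, measured 50.9, 60.1 and 77.5 FPKM at Pro, 27.5, 32.2 and 31.8 at Baso, 28.6, 27.4 and 26.5 at Poly and 30.9, 29.3 and 28.7 at Ortho. The 9 later libraries lay close together and below all 3 Pro libraries, so that its whole fall stood between Pro and Baso (-1.002 ± 0.13, adjusted p = 4.96e-05, limma). Its call in Baso was lost without Pro replicate 3 or without Baso replicate 1, with a log2 fold change as small as -0.84. That call was also lost without hemoglobin. The 250 bases before its start (RefSeq, GRCm38.p6, chr7:27196272-27196521, minus strand) are shown because they hold CACGTG, the E-box read by the Myc family, in 2 places, and TATAAA once, which are in capitals. Among the members, 8 of 57 promoter windows held CACGTG.

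Snrpa: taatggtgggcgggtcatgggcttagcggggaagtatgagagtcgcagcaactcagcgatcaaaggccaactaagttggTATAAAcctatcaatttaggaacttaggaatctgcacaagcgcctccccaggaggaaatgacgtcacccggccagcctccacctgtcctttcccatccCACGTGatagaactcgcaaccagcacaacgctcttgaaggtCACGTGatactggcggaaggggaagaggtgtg

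The SF3 genes, whose products lock the U2 snRNP to the branch point, had the lowest family median in Ortho, -1.33, and 8 of 9 were called lower there. In Baso only Sf3b3 was called (-1.03 ± 0.08, adjusted p = 2.4e-06, limma). This call was lost without Pro replicate 3, without Baso replicate 1 or without hemoglobin. Sf3b3, a large scaffold of SF3B, went from 80.4, 74.8 and 82.3 FPKM in Pro over 34.8, 41.3 and 39.4 in Baso to 29.02, 28.5 and 26.7 in Ortho. Sf3a1 and Sf3a3, subunits of SF3A, had log2 fold changes of -1.46 ± 0.08 (adjusted p = 2.55e-08) and -1.46 ± 0.10 (adjusted p = 1.91e-07) in Ortho. Sf3b2, the partner of Sf3b4 in SF3B and the most abundant SF3 transcript, was at 167, 107 and 121 FPKM in Pro and 61.3, 55.7 and 58.1 FPKM in Ortho (-1.14 ± 0.13, adjusted p = 1.02e-05). Sf3b6, which lies at the branch point in the complex, gave -1.04 ± 0.11 and lost its call without Pro replicate 3 or Ortho replicate 1.

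Sf3b1 stood apart from its complex. This gene encodes the SF3B subunit that clamps the branch point and is often mutated in myelodysplastic syndromes with ring sideroblasts, a disorder of erythroblasts. It lies at mm10 chr1:54985169-55027481 and measured 90.7, 77.8 and 81.00 FPKM at Pro, 71.8, 72.4 and 76.98 at Baso, 79.3, 68.95 and 76.6 at Poly and 71.4, 65.9 and 65.4 at Ortho. The Ortho libraries lay below all Pro libraries, with a log2 fold change of -0.29 ± 0.08 (95% interval -0.47 to -0.12, adjusted p = 0.00528, limma), which is above the median of all genes and was not a call. Without hemoglobin its log2 fold change was 0.19 (adjusted p = 0.0433), so its direction depended on the scaling.

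Of 7 Sf3 promoter windows (250 bases before to 50 after the RefSeq start), 6 held the Ets-type motif CCGGAAG on either strand, against 19 of 57 windows of all members, 8.86% of all 32817 windows and 11.6% of 21230 windows of protein-coding genes. The match is a description of letters and says nothing of binding. The search covered other motifs and every family, and this share was the highest among them. In each Sf3 window the bases before the start touch an annotated exon. The RefSeq start used for Sf3a2 lies 537 bases inside the annotated gene, so its site is not upstream of that gene. The sites are shown in 25 bases each with the motif, or its reverse complement CTTCCGG, in capitals. Their positions on GRCm38.p6 are chr11:4160338-4160362, plus strand, for Sf3a1, chr10:80798650-80798674, plus strand, for Sf3a2, chr4:124714762-124714786, plus strand, for Sf3a3, chr19:5295453-5295477, minus strand, for Sf3b2, chr8:110847017-110847041, minus strand, for Sf3b3, and chr12:4817529-4817553, plus strand, for Sf3b6, which has another match just before it.

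Sf3a1: agggcgggaCCGGAAGtgctcccgc
Sf3a2: cctttgctcCCGGAAGggatcgctt
Sf3a3: cccaagacaCTTCCGGgacacgcgg
Sf3b2: attacgcaaCCGGAAGtttctggaa
Sf3b3: cggtgggcgCTTCCGGgcttgcgag
Sf3b6: gtccgcaatCCGGAAGcgttctgga

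Both subunits of U2AF were called lower in Ortho, and the paralog of the small subunit was much less abundant in every library. U2af1, the small subunit that reads the last bases of the intron, was at 172, 139 and 152 FPKM in Pro and 56.3, 56.4 and 53.8 FPKM in Ortho, a log2 fold change of -1.45 ± 0.08 (adjusted p = 4.61e-08, limma). U2af2, the large subunit that binds the polypyrimidine tract, went from 215, 183 and 207 FPKM to 81.8, 77.4 and 85.5 FPKM (-1.29 ± 0.07, adjusted p = 3.78e-08). No Ortho library of either gene overlapped with a Pro library. U2af1l4 was listed under ENSMUSG00000078765 at 8.11, 14.9 and 12.3 FPKM in Pro and 5.76, 7.23 and 7.83 in Ortho, and under ENSMUSG00000109378 at 6.63, 6.83 and 4.62 and 3.79, 2.51 and 4.11. These genes overlap each other on the plus strand of chromosome 7 (mm10) and overlap Psenen on the other strand, so their reads may be split or shared, and neither was called, though the Ortho libraries of both lay below all Pro libraries (log2 fold changes -0.66 ± 0.20 and -0.65 ± 0.25).

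Among the Prpf genes, Prpf19 had the largest early fall of all 67 genes. Prpf19, the ubiquitin ligase of the complex that activates the spliceosome (mm10 chr19:10895231-10909559), measured 116, 90.02 and 133 FPKM at Pro, 34.2, 39.3 and 34.1 at Baso, 38.3, 46.7 and 32.2 at Poly and 41.6, 39.05 and 47.5 at Ortho. Every later library lay below every Pro library, and the later stages overlapped with one another. Its log2 fold change was -1.61 ± 0.15 in Baso (adjusted p = 8.38e-06) and -1.37 ± 0.15 in Ortho (adjusted p = 8.39e-06, limma), and the call in Baso was kept when any 1 library was left out and without hemoglobin (-1.31). The 250 bases before its RefSeq start (chr19:10894981-10895230, plus strand) are shown for this early fall, with CCGGAAG and CCAAT in capitals.

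Prpf19: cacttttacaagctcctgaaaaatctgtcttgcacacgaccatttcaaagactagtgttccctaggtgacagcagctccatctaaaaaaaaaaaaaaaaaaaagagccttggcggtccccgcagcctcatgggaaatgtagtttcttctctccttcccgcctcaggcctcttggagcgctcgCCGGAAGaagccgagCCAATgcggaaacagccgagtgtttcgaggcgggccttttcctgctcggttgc

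Of the 13 Prpf genes 9 were called lower in Ortho, and the family had the widest range of the 6. Prpf31, which joins the U4/U6 snRNP to the U5 snRNP, went from 29.4, 25.7 and 30.7 FPKM in Pro to 12.7, 14.00 and 14.7 in Baso and 11.3, 10.6 and 11.7 in Ortho, and its log2 fold change in Baso of -0.996 fell just short of the limit. Prpf3, a U4/U6 snRNP protein, was at 27.1, 30.7 and 28.1 FPKM in Pro, 18.2, 19.9 and 19.3 in Poly and 10.8, 11.3 and 10.4 in Ortho (-1.32 ± 0.09, adjusted p = 1.94e-07). Prpf8, the large protein at the heart of the spliceosome, gave -1.15 ± 0.12 (adjusted p = 3.99e-06), with Pro libraries from 62.5 to 85.9 FPKM and Ortho libraries at 33.7, 29.2 and 34.4 FPKM. Prpf18, which acts in the second step of splicing, was the member with the highest log2 fold change, 0.19 ± 0.15 (95% interval -0.14 to 0.52, adjusted p = 0.269). Its Pro libraries at 28.2, 24.9 and 19.99 FPKM and its Ortho libraries at 27.1, 24.2 and 32.3 FPKM overlapped, and the sign turned to -0.17 with all libraries at the same sum. Prpf40b, at 0.835 to 1.42 FPKM in Ortho, gave -0.31 ± 0.24 (adjusted p = 0.258) and is too low for a firm value.

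The SR protein genes split into several courses. In Ortho, 7 of 10 Srsf genes were called lower, in Poly only Srsf9 (-1.06 ± 0.11, adjusted p = 6.33e-06), and in Baso none, while their median was -0.55 in Baso and -1.20 in Ortho. Srsf2, the most abundant of them in Pro, measured 428, 379.9 and 381 FPKM at Pro, 234, 271 and 257 at Baso, 287, 274 and 299 at Poly and 163, 166 and 162 at Ortho. It stepped down between Pro and Baso and again between Poly and Ortho, with no overlap of libraries at either step (-1.27 ± 0.07 in Ortho vs Pro, adjusted p = 5.35e-08, limma). Srsf3 and Srsf6 had the same 2 steps, with log2 fold changes in Ortho of -1.15 ± 0.10 (adjusted p = 9.12e-07) and -1.21 ± 0.06 (adjusted p = 2.94e-08). Srsf3 couples splicing to mRNA export, and Srsf6 was at 198, 202 and 212 FPKM in Pro and 88.5, 88.2 and 85.8 in Ortho. Srsf7, a relative of Srsf3, had most of its difference by Baso (-0.84) and gave -1.197 ± 0.08 (adjusted p = 1.04e-07, limma) in Ortho. Srsf9, a relative of Srsf1, was at -0.71 in Baso and -1.06 in Poly, with no overlap of libraries from Pro to Baso or from Baso to Poly. It gave -1.21 ± 0.11 (adjusted p = 1.05e-06, limma) in Ortho.

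Srsf4 was near its Pro level through Poly and fell in Ortho. It measured 93.8, 107 and 103 FPKM at Pro, 90.4, 76.9 and 98.2 at Baso, 101, 94.5 and 101 at Poly and 42.9, 35.7 and 48.4 at Ortho. The libraries of the first 3 stages overlapped and all 9 lay above the 3 Ortho libraries. The log2 fold change was -0.03 ± 0.11 in Poly vs Pro (adjusted p = 0.822) and -1.21 ± 0.11 in Ortho vs Poly (adjusted p = 8.25e-06, limma). Srsf4 (mm10 chr4:131873617-131901706) overlaps 1 annotated gene on each strand. The use of strand in counting is not given in the sources used here, so reads of Srsf4 and of other members with a gene on the opposite strand, such as Sf3b3 (Cog4), Hnrnpab (Phykpl), Hnrnpu (Cox20) and Srsf2 (Mettl23 and Mfsd11), may include that gene. Srsf10, an SR-related repressor of splicing that is activated when it loses its phosphates, was at 92.98, 127 and 99.4 FPKM in Pro, 75.5, 82.3 and 63.9 in Poly and 32.5, 37.2 and 37.1 in Ortho. It had the largest fall of the family in Ortho vs Pro (-1.54 ± 0.17, adjusted p = 5.66e-06) and fell by 1.03 on the log2 scale from Poly to Ortho (adjusted p = 0.000552), a call lost without Poly replicate 2 or Ortho replicate 1.

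Srsf5 (mm10 chr12:80945504-80950507) did not follow its family. It measured 232, 197 and 207 FPKM at Pro, 229, 205 and 194 at Baso, 219, 179.6 and 179 at Poly and 205, 177 and 182 at Ortho. The Pro and Ortho libraries overlapped, and the log2 fold change of -0.17 ± 0.10 (95% interval -0.40 to 0.06, adjusted p = 0.158, limma) did not pass the test. It was 0.32 (adjusted p = 0.0155) without hemoglobin. Srsf5 thus moved from the 14th to the 4th place among the 67 genes by mean FPKM between Pro and Ortho. Srsf1, the founding SR protein, gave -0.82 ± 0.19 (adjusted p = 0.00188) and was not called, with 1 Baso library at 132 FPKM far above the other two at 74.1 and 76.5. Srsf11 varied most, with Pro libraries at 174, 109 and 79.99 FPKM and Ortho libraries at 51.03, 73.5 and 62.1 FPKM, and gave -0.89 ± 0.24 (adjusted p = 0.00474), also not a call.

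**Figure D3:**
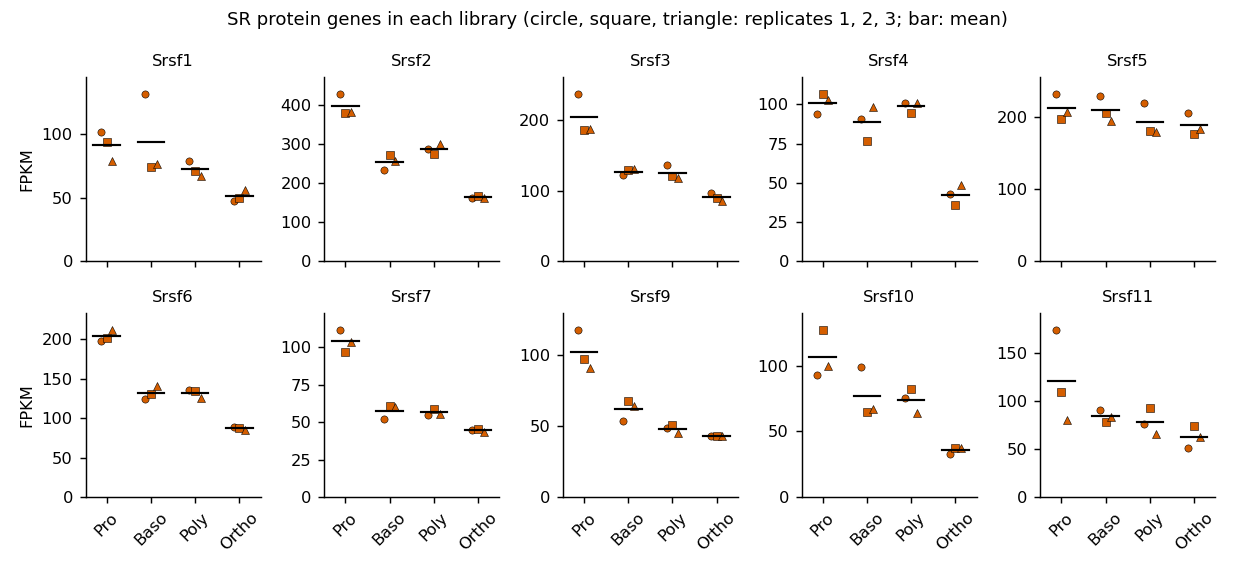
FPKM (y axis, from 0) of the 10 Srsf genes in each library by stage (x axis), with 1 symbol for each replicate number and a bar for the mean of 3. Srsf4 stays near 100 FPKM until Poly and lies at 35.7 to 48.4 FPKM in Ortho, whereas Srsf5 keeps 177 to 205 FPKM in Ortho.

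The hnRNP genes were the most abundant of the set and summed to 5244 ± 621 FPKM in Pro and 2198 ± 29.2 FPKM in Ortho (SD, n = 3). Of 20, 2 were called lower in Baso, 2 in Poly and 15 in Ortho, with medians of -0.50, -0.61 and -1.10. Hnrnpa2b1, which binds and sorts RNAs besides its role in splicing, was the most abundant of all 67 with 844, 688 and 709.97 FPKM at Pro, 519, 584 and 598 at Baso, 503, 504 and 487 at Poly and 296, 292 and 293 at Ortho. Its libraries did not overlap between any neighbouring stages, and its log2 fold change was -1.34 ± 0.09 in Ortho vs Pro (adjusted p = 1e-07, limma). Hnrnpa1, which blocks exons in competition with SR proteins, was at 686, 462 and 581 FPKM in Pro, 238, 263 and 279.7 in Baso and 203, 191 and 198 in Ortho. Most of its fall came between Pro and Baso (-1.13 ± 0.12, adjusted p = 1.66e-05), a call lost without Pro replicate 1 (-0.99) and without hemoglobin. Hnrnpa3 followed a like course to -1.53 ± 0.15 in Ortho (adjusted p = 3.35e-06), with 1 Pro library at 672 FPKM above the other two at 390.0 and 448. The A and B hnRNPs have processed copies elsewhere in the genome, so reads may be shared among them.

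Hnrnpab, a relative of the A/B hnRNPs known also as a transcription regulator, had the largest fall of the family in Ortho. It measured 862, 677 and 728 FPKM at Pro, 348, 385 and 385 at Baso, 378, 376 and 377 at Poly and 241, 245 and 239 at Ortho. It stepped down between Pro and Baso (-1.01 ± 0.09, adjusted p = 4.31e-06) and between Poly and Ortho (-0.64 ± 0.09, adjusted p = 0.000148), to -1.63 ± 0.09 in Ortho vs Pro (adjusted p = 2.89e-08). The call in Baso was lost without Pro replicate 1 or without Baso replicate 1, at -0.91. That call was also lost without hemoglobin. Of 18 Hnrnp promoter windows 12 held CCAAT or ATTGG, against 28 of 57 windows of all members and 37.4% of all windows. The 250 bases before its RefSeq start (chr11:51606882-51607131, minus strand) hold this motif in 3 places, in capitals.

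Hnrnpab: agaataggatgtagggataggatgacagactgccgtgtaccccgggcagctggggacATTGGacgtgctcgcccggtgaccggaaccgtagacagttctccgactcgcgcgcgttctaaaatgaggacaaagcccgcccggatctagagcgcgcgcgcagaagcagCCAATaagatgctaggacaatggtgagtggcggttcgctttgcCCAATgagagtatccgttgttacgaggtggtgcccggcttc

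Hnrnpul1 and Hnrnpm differed from the rest of the hnRNPs. Hnrnpul1, of the group of scaffold-binding hnRNP U proteins, was at 118, 128 and 127 FPKM in Pro, 135, 129 and 134 in Poly and 79.9, 74.4 and 77.7 in Ortho. Its Poly libraries all lay above its Pro libraries, the only member of which this was true, but by a log2 fold change that did not pass the test (0.097 ± 0.06, adjusted p = 0.208). Its Ortho libraries lay below all others, by -0.77 ± 0.06 against Poly (adjusted p = 3.11e-06, limma), short of a call. Hnrnpu itself, which ties chromatin to the nuclear matrix, was at 357, 191 and 376 FPKM in Pro and 86.3, 82.1 and 162 in Ortho, with 1 library of each stage far from the other two. It was called lower in Ortho (-1.48 ± 0.28, adjusted p = 0.000498) with the widest error among the hnRNPs. Hnrnpm, a splicing regulator, was at 201, 139 and 148 FPKM in Pro, 109, 95.3 and 103 in Poly and 118, 129.96 and 120.2 in Ortho. It and Snrpa were the only members whose Ortho libraries all lay above all Poly libraries, and its log2 fold change against Pro was -0.39 ± 0.12 (adjusted p = 0.011), which turned to 0.10 without hemoglobin and 0.01 with median centring. Hnrnpm overlaps March2 on the same strand, so their reads may be split or shared. Hnrnph2, an X-linked copy of Hnrnph1, gave -0.67 ± 0.08 (adjusted p = 1.02e-05), from 64.3, 62.6 and 59.4 FPKM to 41.2, 38.6 and 36.6 FPKM.

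The steps between neighbouring stages were compared next, with the families described by their medians and not tested against each other. Between Baso and Poly no member was called in either direction by limma, beside 0.454% of all genes called lower and 0.0616% called higher, and 16 members were lower and 2 higher at an unadjusted p under 0.05, beside 12.4% and 16.9% of all genes. With the adjusted p alone, 3 members were lower in Poly than in Baso and 33 in Ortho than in Poly, beside 5.77% and 21.7% of all genes. Between Poly and Ortho Srsf4 and Srsf10 were called lower and none higher, beside 4.81% and 1.05% of all genes. In that step all 3 Ortho libraries lay below all 3 Poly libraries in 51 members, beside 31.3% of all genes. The family medians of the last step were -0.51 for Hnrnp, -0.47 for Srsf, -0.36 for U2af, -0.31 for Sf3, -0.30 for Prpf and -0.15 for Snrp, beside -0.08 over all genes. In the first step, from Pro to Baso, they were -0.50 for Hnrnp, -0.55 for Srsf, -0.55 for U2af, -0.76 for Sf3, -0.53 for Prpf and -0.96 for Snrp.

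These steps share no library, so their difference was tested for every gene in the same model, as the log2 fold change from Poly to Ortho minus that from Pro to Baso. A value above 0 marks a lower fold change in the first step than in the last, and need not mean a fall. Prpf19 (1.75 ± 0.22, adjusted p = 9.21e-05), Snrpg (1.15 ± 0.11, adjusted p = 1.95e-05) and Snrpa (1.11 ± 0.18, adjusted p = 0.000517) were called above 0, beside 7.52% of all genes. Srsf4 (-1.02 ± 0.16, adjusted p = 0.000483, limma) was called below 0, beside 6.08% of all genes. With the adjusted p alone, 23 members lay above 0, beside 25.4% of all genes, of which 8 were Snrp genes, and 4 lay below 0, beside 15.8%, namely Srsf4, Hnrnpul1 (-0.88), Hnrnpa2b1 (-0.36) and Prpf39 (-0.36). All 11 Snrp, all 9 Sf3 and all 4 U2af genes had a value above 0. Of all genes 42.8% lay below 0, with a median of 0.11. Prpf19 and Srsf4 were called with each scaling, at 1.59 and -1.20 without hemoglobin, whereas Snrpg and Snrpa were not called without hemoglobin and Hnrnpul1 then was (-1.05). The call of Srsf4 was lost without Pro replicate 1, Baso replicate 1, Baso replicate 3 or Ortho replicate 2, at -0.90 at the smallest, and that of Snrpa without Pro replicate 3 (0.95).

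**Figure D4:**
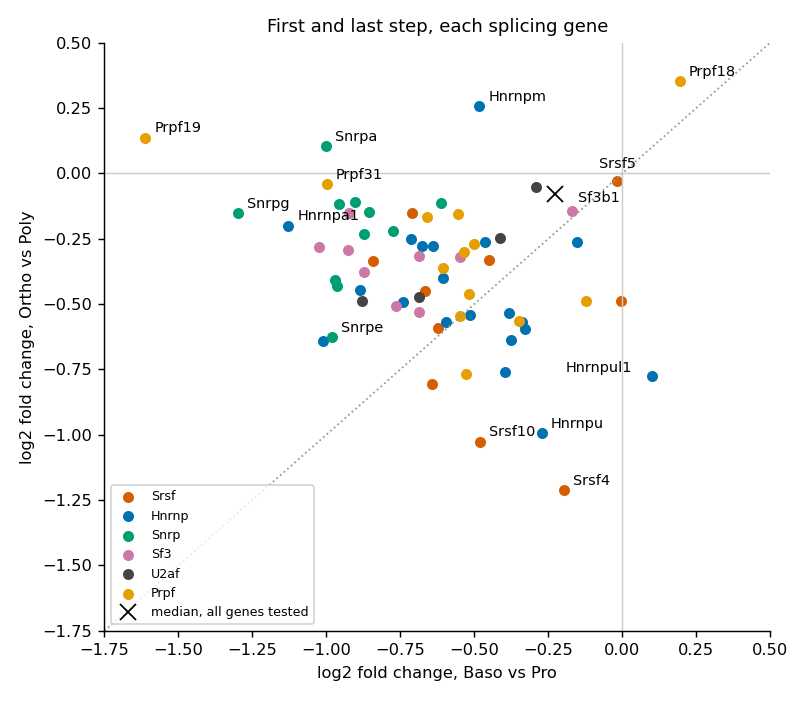
Log2 fold change from Pro to Baso (x axis) against that from Poly to Ortho (y axis) for the 67 genes, coloured by family. The dotted line marks equal steps and the cross the median of all genes tested. The Snrp, Sf3 and U2af genes and Prpf19 lie to the left of and above the line, and Srsf4, Srsf10, Hnrnpu and Hnrnpul1 below it.

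Ratios of related genes within a library were computed on log2(FPKM + 1) for 18 pairs, without a test. Such a ratio depends little on how the library was scaled where both genes are well above 1 FPKM, and more where one is low. In 7 of the 18 pairs the Pro and Ortho libraries did not overlap. Some genes occur in several pairs, and no share was computed for other pairs of genes, so this count has no reference. Srsf5 to Srsf6 moved most, with log2 ratios of 0.23, -0.04 and -0.04 at Pro, 0.87, 0.64 and 0.46 at Baso, 0.68, 0.41 and 0.501 at Poly and 1.21, 0.99 and 1.08 at Ortho. These genes began at like levels, and every Ortho library held more Srsf5 than any other library relative to Srsf6. U2af1 to U2af1l4 (ENSMUSG00000078765) went from 4.24, 3.15 and 3.52 in Pro to 3.08, 2.802 and 2.63 in Ortho, with low values in the second gene. Hnrnpu to Hnrnpul1 had a mean of 1.24 in Pro and 0.43 in Ortho, and its libraries overlapped.

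Other pairs moved and came back. Hnrnpa1 to Hnrnpa2b1 was at -0.298, -0.57 and -0.29 at Pro, -1.12, -1.15 and -1.09 at Baso, -1.104, -1.14 and -1.15 at Poly and -0.54, -0.61 and -0.57 at Ortho. The Baso and Poly libraries lay below all Pro and Ortho libraries. From Pro to Baso the log2 fold change was -1.13 for Hnrnpa1 and -0.395 for Hnrnpa2b1, and from Poly to Ortho it was -0.200 and -0.76. Srsf4 to Srsf6 went the other way, from a mean of -1.01 in Pro to -0.58 in Baso and -0.42 in Poly and back to -1.04 in Ortho.

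**Figure D5:**
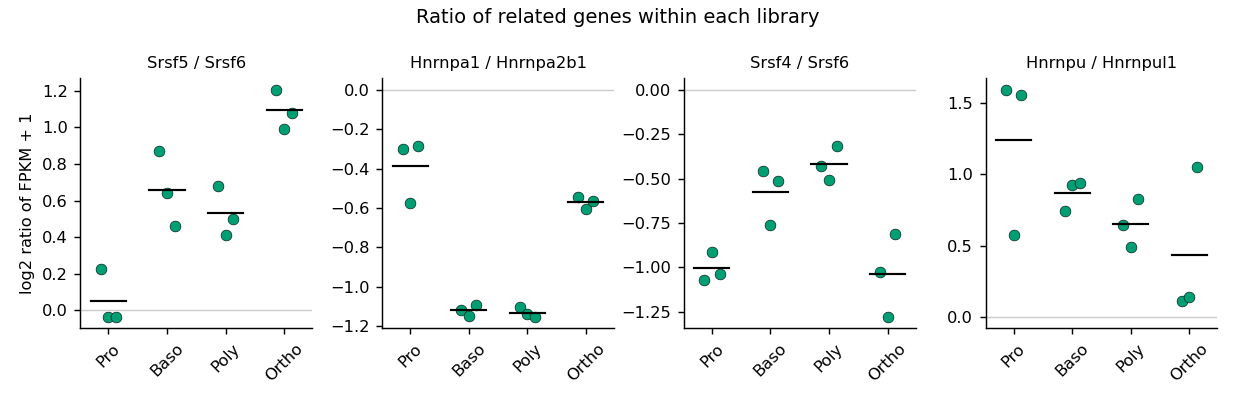
Log2 ratio of FPKM + 1 (y axis, a separate range in each panel) of 4 pairs of related genes in each library by stage (x axis), with bars for the mean of 3. Srsf5 to Srsf6 rises to 0.99 to 1.21 in Ortho, Hnrnpa1 to Hnrnpa2b1 dips in Baso and Poly, Srsf4 to Srsf6 peaks in Poly, and Hnrnpu to Hnrnpul1 varies between libraries of a stage.

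Many of these genes are annotated with transcripts that are degraded, and a value per gene does not tell them from the coding ones. In GENCODE M21, 35 of 67 members (52.2%) had a transcript marked for nonsense-mediated decay, beside 30.4% of 10857 protein-coding genes tested. The share was 9 of 10 among Srsf genes, which are known to limit their own levels through such poison exons, and 1 of 9 among Sf3 genes. A transcript with a retained intron was annotated in 51 of 67 members (76.1%), beside 60.8% of the protein-coding genes. The other motifs searched in the 57 promoter windows were AGATAA, the GATA site, in 4 (7.02%, beside 11.2% of all windows) and TATAAA in 6 (10.5%, beside 13.6%), and CACGTG was in 14.0% beside 7.15%.

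Other lists of the splicing machinery were read against the 23.8% of all genes called lower and the 6.33% called higher in Ortho vs Pro. Of 52 other snRNP and spliceosome core genes 25 were called lower in Ortho vs Pro and none higher, with a median of -0.996. Phf5a, the SF3B subunit that lies beside Sf3b1, went from 248, 146 and 149.8 FPKM in Pro to 33.9, 35.4 and 35.6 in Ortho (-2.296 ± 0.17, adjusted p = 2.92e-07, limma). Slu7, a factor of the second step, was the highest of that list at 0.11 ± 0.12 (adjusted p = 0.405). Of 16 snRNP assembly genes 8 were called lower, from Gemin6 of the SMN complex at -1.603 to Wdr77 at 0.64 (not called), and of 17 genes of the exon junction and of mRNA export 12 were, from the export adaptor Alyref at -1.45 to Thoc2 at -0.295. Of 41 other splicing regulators tested, 15 were called lower, with Khsrp lowest at -1.76, and 1 higher. That gene was Rbm38, an RNA-binding protein known for erythroid splicing switches, with 88.2, 191 and 179 FPKM in Pro, 317, 361 and 343 in Baso and 432, 525 and 464 in Ortho (1.700 ± 0.23, adjusted p = 3.15e-05).

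The 7 kinases that phosphorylate SR proteins had a median log2 fold change of 0.82, and none passed the limit on the fold. Clk1 was at 63.7, 77.1 and 77.4 FPKM in Pro and 149, 118 and 121 in Ortho (0.82 ± 0.15, adjusted p = 0.000465). Clk3 (0.83 ± 0.13, adjusted p = 8.58e-05), Srpk2 (0.86 ± 0.09, adjusted p = 2.85e-06) and Srpk3 (0.901 ± 0.18, adjusted p = 0.000859, at 0.299 to 2.07 FPKM) were also higher by the adjusted p. Srpk1 (-0.77 ± 0.10, adjusted p = 1.98e-05) and Clk2 (-0.67 ± 0.10, adjusted p = 8.56e-05) were lower, and Clk4 gave -0.12 ± 0.11 (adjusted p = 0.353, limma).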

How the data were processed

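Per the labels and the study's methods, the authors trimmed reads with Cutadapt and Trimmomatic, used HISAT2 to align them to mm10 and featureCounts to count fragments, and deposited 1 FPKM value per gene and library. The tool that made the FPKM and the annotation release are not given in the sources used here, and the labels and methods name different library kits. The table has 29839 lines and 29838 genes after 1 repeated identifier.

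FPKM are not counts. In 3697 to 4192 genes under 0.5 FPKM only 0.789% to 1.50% of the ratios between libraries lay at a common step, so whole fragments were not recovered. By that step, if it is real, the other 11 libraries held 61.7% to 79.3% of the fragments of Pro replicate 1. No background was computed for such a step, so these relative depths are uncertain, and the depth itself is unknown.

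Genes with at least 1 FPKM in 3 libraries (12994) entered 1 model over all 12 libraries on log2(FPKM + 1), fitted by limma 3.58.1 (R 4.3.3) with its variance trend. A fold change is on that scale, which understates the change of low genes. Tests are two-sided, and adjusted p-values are over all genes tested. On simulated data of 12994 genes, for Ortho vs Pro, 98% of 200 changed genes were recovered with 2 false calls. All planted changes lay well past the limit on the fold, in normal noise without a shift of scale. The simulation therefore does not cover genes near that limit or the rise of hemoglobin. Same-numbered libraries of Baso, Poly and Ortho deviated together (r of 0.156 to 0.319 over genes), and those of Pro with another stage less (0.00524 to 0.0968). Libraries with different numbers were not compared, so whether the numbers pair libraries is not settled.

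Named genes were all Srsf and U2af genes and, in each other family, the most abundant, the 3 lowest and the 2 highest in Ortho vs Pro, with the genes of the 4 pairs whose ratio moved most, of which 1 gene is not reported here. Prpf8, Prpf39, the ratios of Hnrnpa1 to Hnrnpa2b1 and of Srsf4 to Srsf6, and Clk1, Clk2, Clk3, Clk4 and Srpk2 were named after their values were seen. The members and lists were chosen with earlier results of these data known, and the test of the difference between steps was added after seeing the data. Positions and transcript types are from GENCODE M21, and promoter sequences from RefSeq (GRCm38.p6, 57 of 66 symbols matched, windows of 250 bases before to 50 after the start).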

Additional observations from a re-analysis of the deposited data

How the results depend on the processing

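Members called lower with all libraries at the same sum, without hemoglobin, and with median centring were 20, 1 and 2 in Baso, beside 14.0%, 3.71% and 3.15% of all genes, and 28, 2 and 4 in Poly, beside 18.6%, 6.45% and 7.12%. In Ortho vs Pro they were 8 and 13 with the last 2 scalings, beside 9.89% and 9.95% of all genes. In Ortho vs Poly they were 1 and 1, beside 4.01% and 3.36%. The Ortho medians on these 3 scales were -1.47, -0.63 and -0.71 for Hnrnp, -1.51, -0.67 and -0.75 for Prpf, -1.69, -0.86 and -0.93 for Sf3, -1.63, -0.79 and -0.87 for Snrp, -1.57, -0.72 and -0.81 for Srsf, -1.32, -0.54 and -0.58 for U2af, -1.55, -0.72 and -0.80 for all members and -0.72, -0.031 and -0.028 for all genes. Signs turned without hemoglobin for Hnrnpm (0.10), Sf3b1 (0.19) and Srsf5 (0.32), with median centring for Hnrnpm (0.011), Prpf40b (0.092), Sf3b1 (0.10) and Srsf5 (0.23), and at the same sum for Prpf18 (-0.17).

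With a pseudocount of 5 the Ortho medians were -0.93 for Prpf, -1.09 for all members and -0.24 for all genes, 1 member was called lower in Ortho vs Poly and none in the late minus early difference. A pseudocount of 0.1 gave -0.51 for all genes, and a mean of at least 5 FPKM -0.59 for all genes and -1.29 for U2af. With the adjusted p alone, 53, 56, 3 and 33 members were lower in Baso vs Pro, Poly vs Pro, Poly vs Baso and Ortho vs Poly, and 4 were below and 23 above 0 in the difference of steps. That difference gave 2 below and 1 above 0 without hemoglobin and 2 and 1 with median centring.

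Leaving out 1 library at a time gave 3 to 12 members called lower in Baso, 1 to 3 in Ortho vs Poly, and 0 to 2 below and 2 to 5 above 0 in the difference of steps. The fit with the replicate block called 6, 18 and 51 members lower in Baso, Poly and Ortho vs Pro, 0 in Poly vs Baso and 2 in Ortho vs Poly, and a fit of Baso, Poly and Ortho alone with the replicate block, added after seeing the data, also gave 0 and 2, so the block changed no count of calls. Depth is unknown, 3 libraries a stage limit the precision, and each stage's values below about 1 FPKM, as for Prpf40b, are the least certain.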
